A study of Mus musculus with 12 samples.

Results

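The genes described here are 10 genes that supply selenium or remove reactive oxygen species: Selenop, Gpx1, Gpx3, Gpx4, Txnrd1, Prdx1, Prdx2, Sod1, Sod2 and Cat. They were picked by gene symbol, and each symbol matched a single row in both deposited expression tables, 10 of 55385 gene models in one table and 10 of 55401 in the other. The set was proposed with values of these tables in view, although no record says which values, so the levels and changes of the 10 genes are descriptions and not independent support for a pattern. All 10 passed the filter on low values (at least 1 TPM in at least 2 libraries of a table). That filter left 14153 tested genes in the first table and 14941 in the second.

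RNA-seq was measured in 12 libraries of oocytes isolated from mouse ovaries, 2 libraries for each of 6 groups. The first table held 8 libraries of a PRC2 experiment: control oocytes (Eed F/+; Ddx4-Cre) and conditional knockout (cKO) oocytes (Eed F/-; Ddx4-Cre), each as non-growing oocytes at postnatal day 6 and as growing oocytes at postnatal day 7. The second table held 4 libraries of a PRC1 experiment, all of growing oocytes at postnatal day 7. Its control is labelled Ring1-/-; Rnf2 F/+; Ddx4-Cre, and its cKO is labelled Ring1-/-; Ring1 F/-; Ddx4-Cre, which names Ring1 again and not Rnf2, so PRC1 cKO here stands for the libraries with that label. Both PRC1 groups therefore carry the Ring1 deletion, and all 12 libraries carry Ddx4-Cre, which recombines in germ cells. Eed is a core subunit of Polycomb repressive complex 2 (PRC2), which methylates histone H3, and either Ring1 or Rnf2 serves as the ubiquitin ligase of Polycomb repressive complex 1 (PRC1). The labels do not tell whether a group's 2 libraries stem from different mice, and p-values measure only the spread between these libraries. Growth and postnatal day differ together between the stages and cannot be told apart.

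TPM is transcript abundance per transcript length, scaled to a sum of 1000000 in each library, so it can be compared between genes, but sequencing depth is unknown. Because the sum is fixed, TPM rising in some models lowers it in others. Models in GENCODE's provisional TEC class held 2.53% of the TPM in PRC2 control non-growing oocytes, 24.0% in growing ones, 21.7% in PRC1 control and 13.0% in PRC1 cKO, as means of 2 libraries. Eed read 88.8 and 90.5 TPM for non-growing control against 12.1 and 10.3 TPM for cKO, and 62.3 and 60.5 against 9.64 and 10.1 TPM once growing. Rnf2 read 59.2 and 53.8 TPM for PRC1 control against 87.8 and 61.4 for PRC1 cKO, so its level did not mark the cKO libraries, and Ring1 was at most 0.02 TPM in both PRC1 groups. All 10 oocyte markers (such as Ddx4, Zp3 and Gdf9) were detected at 1 TPM or more in every group, and their levels differed between groups, as given beside the comparisons.

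Hydrogen peroxide and lipid peroxides arise as by-products of respiration, and cells remove them through a pair of thiol systems. Glutathione peroxidases draw their electrons from glutathione, and peroxiredoxins draw theirs from thioredoxin, which thioredoxin reductase keeps reduced with NADPH. Superoxide dismutases supply part of the peroxide by converting superoxide, and catalase destroys peroxide directly, mostly in peroxisomes. Several of these enzymes carry selenocysteine, an amino acid placed at a UGA codon that would otherwise stop translation, with the help of a stem loop in the untranslated 3′ end of the messenger RNA. In the ovary, oocytes stay arrested for long periods and then enlarge while their mitochondria multiply, and several antioxidant enzymes are stored in the egg for the embryo.

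Selenocysteine codons separate the 10 genes into 5 selenoprotein genes and 5 that carry none. An in-frame TGA was found in the coding sequence of Gpx1, Gpx3, Gpx4, Selenop and Txnrd1, with GENCODE vM21 marking each as selenocysteine, against 29 of 21526 genes with a complete coding transcript (0.135%). Selenop held 10 such codons and each of the other 4 genes held 1. The stretches of 15 coding bases on each side are shown because they place the codon differently: well inside the coding sequence in the peroxidases, and separated from the stop by 1 codon in Txnrd1, where the stretch ends at the stop codon. Codon numbers count along the longest complete coding transcript of each gene, so other transcripts can number the same codon differently. Capitals mark the TGA, and sequences are from GRCm38 on the coding strand.
Gpx1, codon 47 (chr9:108339451-108339453): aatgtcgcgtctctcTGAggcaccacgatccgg
Gpx3, codon 73 (chr11:54907256-54907258): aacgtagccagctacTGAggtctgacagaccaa
Gpx4, codon 129 (chr10:80054737-80054739): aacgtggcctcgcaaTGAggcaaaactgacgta
Selenop, codon 59, its first (chr15:3274848-3274850): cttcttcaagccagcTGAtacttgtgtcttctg
Txnrd1, codon 612 (chr10:82896037-82896039): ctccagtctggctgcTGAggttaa

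The antioxidant response element, through which the transcription factor NRF2 (Nfe2l2) switches on many antioxidant genes, has the core TGACNNNGC. The core was searched on both strands of RefSeq promoter windows on GRCm38.p6, which run from 250 bases before to 50 bases after each annotated start. It was found in 3 of the 17 windows of the 10 genes, those of Prdx1, Txnrd1 and Sod1, and in 12.4% of all 32851 windows. The 3 matches are shown because they fall in genes that did not move together, with Prdx1 and Txnrd1 above and Sod1 below their non-growing level in growing control oocytes. All 3 lie on the reverse strand, and capitals mark the core as read on the gene's strand.
Prdx1 (chr4:116685456-116685484): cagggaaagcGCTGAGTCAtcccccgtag
Txnrd1 (chr10:82859104-82859132): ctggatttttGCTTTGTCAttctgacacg
Sod1 (chr16:90220696-90220724): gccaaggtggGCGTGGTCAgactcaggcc

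The levels of the genes spanned more than 2 orders of magnitude within each group. In PRC2 control non-growing oocytes Prdx1 was highest at a mean of 1399 TPM, followed by Sod1 at 800.4 and Gpx4 at 681, while Txnrd1 was lowest at 6.08. None of the neighbours in that order overlapped between the libraries. In PRC2 control growing oocytes Prdx1 (1660.3 TPM) was followed by Prdx2 (582) and then Sod1 (299.5), and Cat was lowest at 1.70, again with no overlap between neighbours. In PRC1 control the neighbours Sod1 and Gpx4, Gpx1 and Sod2, and Selenop and Cat overlapped. Together the 10 genes held 3866 ± 48.9 TPM before growth and 3018 ± 59.8 TPM during growth in PRC2 control (SD, n = 2). Prdx1 made up 36.2% of that sum in non-growing and 55.0% in growing oocytes. The 5 selenoprotein genes together held 1177 ± 33.3 TPM before growth and 392 ± 31.1 TPM during growth there (SD, n = 2), and the PRC1 groups held 483 ± 63.7 (control) and 700.1 ± 122 (cKO; SD, n = 2).

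**Figure D1:**
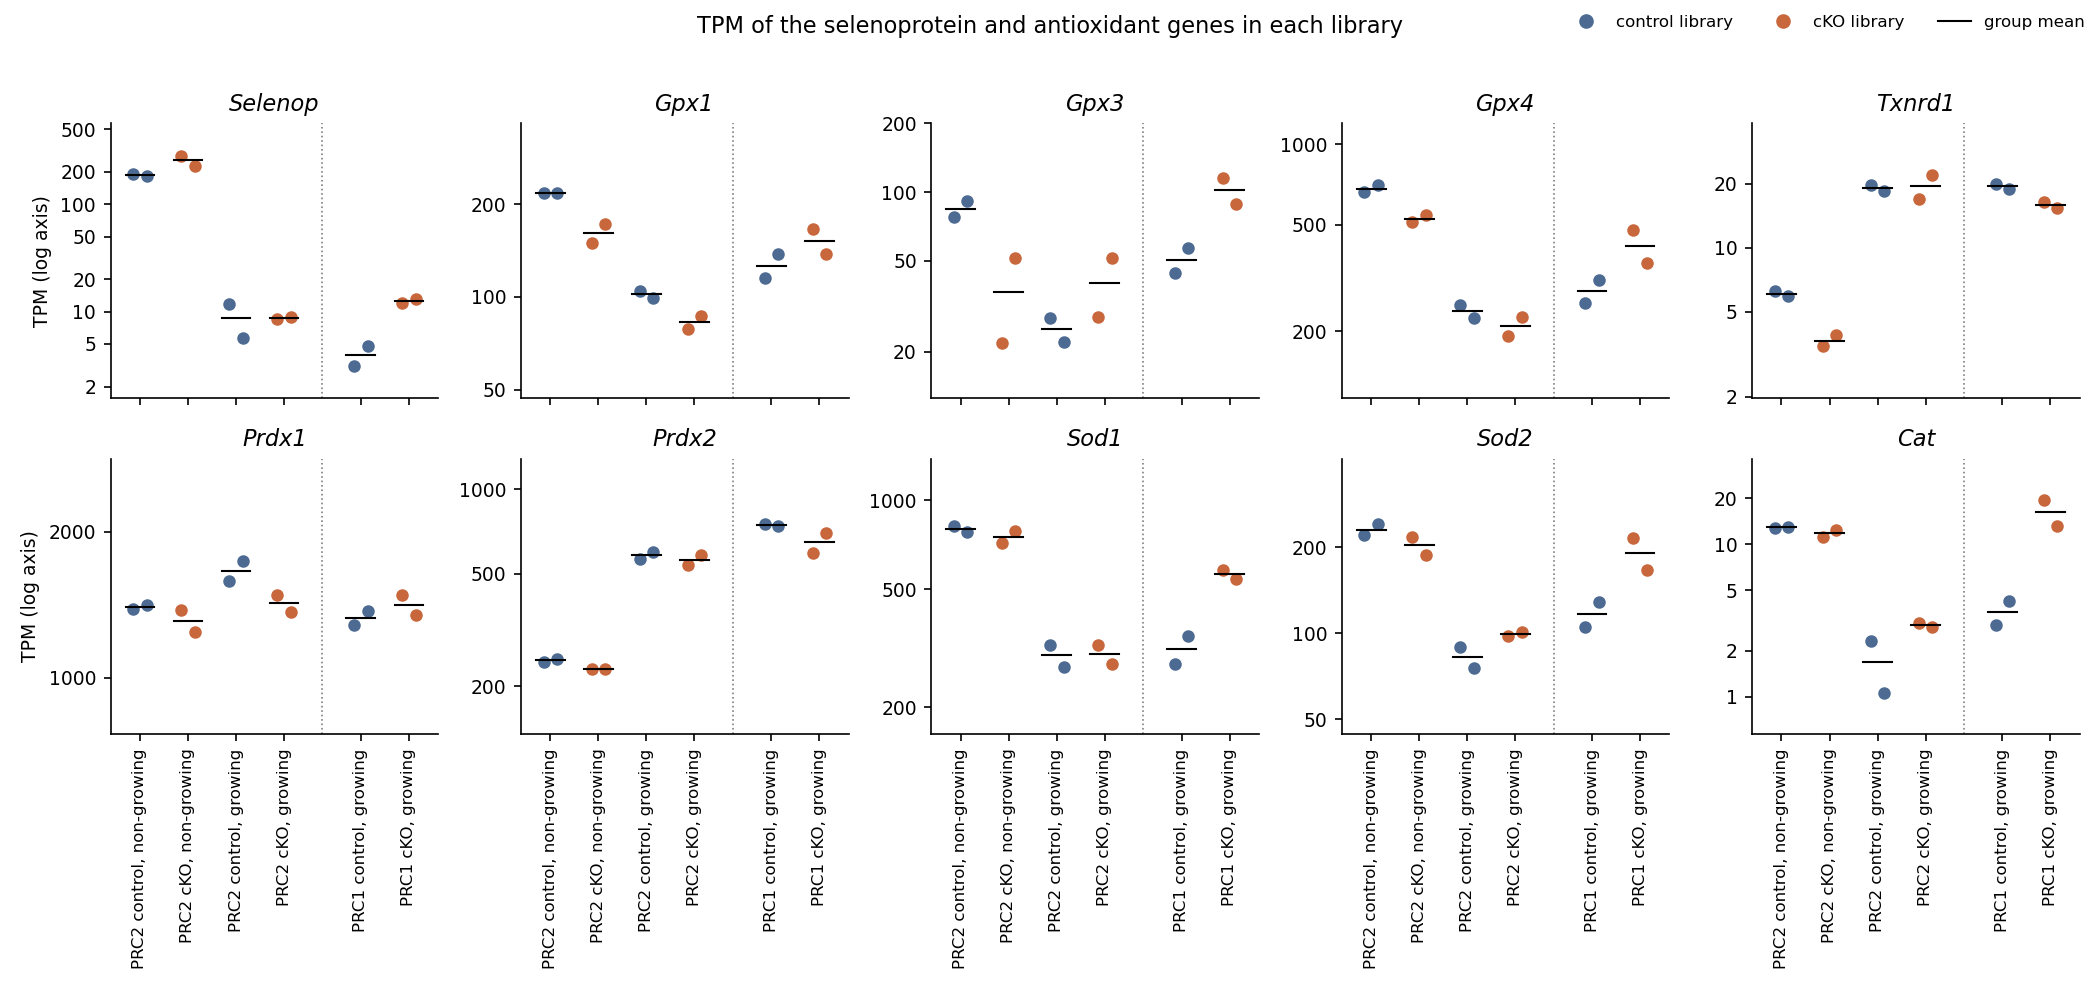
TPM of each gene (log axis, with its own range in each panel) in each of the 12 libraries: points are libraries, black lines are means of 2, blue is control and orange is cKO, and the dotted line separates the tables, which are compared only within themselves. Selenop falls from 191 and 184 TPM in PRC2 control non-growing oocytes to 5.71 and 11.8 TPM in growing ones, while Prdx2 and Txnrd1 run the other way.

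**Figure D2:**
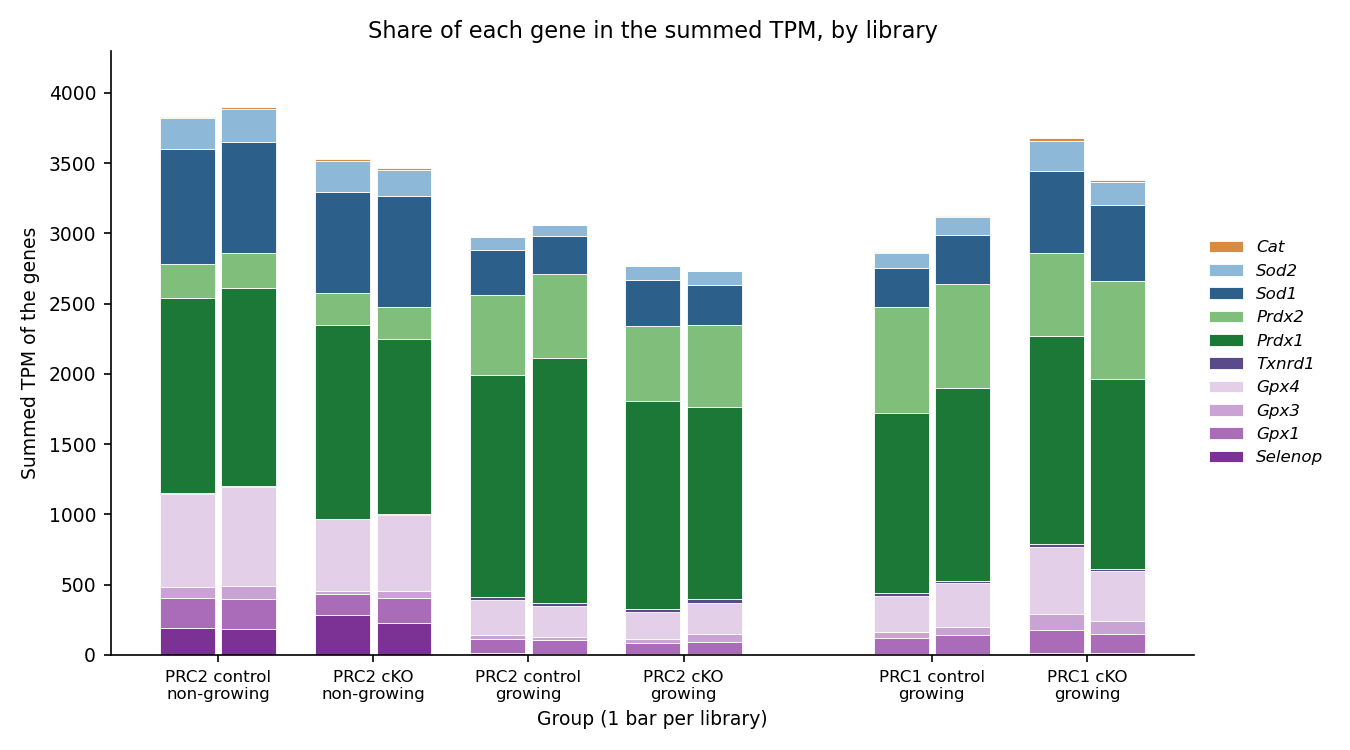
Summed TPM of the genes in each library, with 1 stacked bar per library and 1 colour per gene. Prdx1 is the largest segment in every bar, and Prdx2 takes the place of Sod1 as the next largest segment in the bars of growing oocytes.

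Selenop (ENSMUSG00000064373, chromosome 15, 3268547 to 3280508 on GRCm38, plus strand) encodes selenoprotein P, the secreted protein that carries selenium between tissues. Non-growing control libraries read 191 and 184 TPM, against 284 and 229 TPM for PRC2 cKO. Growing control libraries read 11.8 and 5.71 TPM, against 8.55 and 8.81 TPM for PRC2 cKO. The stages did not overlap in either genotype, and every growing library of the PRC2 experiment was at 11.8 TPM or less. PRC1 control libraries read 3.12 and 4.80 TPM, against 12.0 and 13.0 TPM for PRC1 cKO, with both cKO libraries above both controls. On the log2(TPM + 1) scale the change was -4.34 (SE 0.28) from non-growing to growing control oocytes, -4.73 (SE 0.28) in PRC2 cKO and 1.47 (SE 0.26) in PRC1 cKO against control. The growth change of Selenop had the largest size among the 10 genes in both genotypes. Selenop overlaps Ccdc152 on the other strand by 439 bases, and since no source used here states whether counting used strand, reads there cannot be told apart. Ccdc152 read 17.4 and 15.3 TPM before growth and 1.91 and 2.80 TPM during growth with Eed intact. It read 0.84 and 1.09 TPM for PRC1 control against 18.9 and 14.1 TPM for PRC1 cKO.

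Gpx1 (ENSMUSG00000063856, chromosome 9, 108338903 to 108340343 on GRCm38, plus strand) encodes the cytosolic and mitochondrial glutathione peroxidase. Before growth its control libraries read 218 and 218 TPM and its PRC2 cKO libraries 150.3 and 173 TPM. During growth the readings were 105 and 99.3 TPM for control against 78.9 and 86.7 TPM for cKO. The PRC2 groups did not overlap in any of the pairs compared, with the cKO below the control at both stages. The PRC1 libraries read 115 and 138 TPM for control against 167 and 138 TPM for cKO, where the lower cKO library lay only just above the higher control library. The log2 change was -1.09 (SE 0.10) with growth in control and 0.26 (SE 0.17) in PRC1 cKO.

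Gpx3 (ENSMUSG00000018339, chromosome 11, 54902453 to 54910377 on GRCm38, plus strand) encodes the secreted glutathione peroxidase. Its non-growing readings were 77.5 and 91.0 TPM for control against 21.7 and 51.4 TPM for PRC2 cKO. Its growing readings were 28.2 and 21.9 TPM for control against 28.2 and 51.4 TPM for PRC2 cKO. Both PRC2 cKO groups were spread widely for Gpx3, and in each of them replicate 2 was much higher than replicate 1. Its standard error, 0.42 on the log2 scale, was the largest among the 10 genes in the PRC2 table. Its growth change was -1.72 in control, and in PRC2 cKO, where the stages overlapped, it was 0.18. For the PRC1 pair Gpx3 read 44.1 and 56.6 TPM under control against 115 and 88.8 TPM for cKO, a log2 change of 1.00 (SE 0.21) with no overlap.

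Gpx4 (ENSMUSG00000075706, chromosome 10, 80047166 to 80056439 on GRCm38, plus strand) encodes the peroxidase that reduces lipid peroxides within membranes and protects against ferroptosis, the death caused by such peroxides. Its non-growing libraries held 661 and 702 TPM for control against 510.1 and 542 TPM for PRC2 cKO. Its growing libraries held 249.7 and 225 TPM for control against 192 and 226 TPM for PRC2 cKO. The stages were clearly separated, and the genotypes overlapped in growing oocytes only. PRC1 libraries held 256 and 309.8 TPM for control against 476 and 359 TPM for cKO, without overlap. The log2 change was -1.52 (SE 0.10) with growth in control and 0.55 (SE 0.19) in PRC1 cKO. A processed copy, Gpx4-ps2, matches the Gpx4 transcript at 99.7% over 733 bases and held at most 9.29 TPM in any library, so a small part of the reads could be shared. Copies of Prdx1, Prdx2 and Sod1 reached at most 0.60 TPM.

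Txnrd1 (ENSMUSG00000020250, chromosome 10, 82833951 to 82897712 on GRCm38, plus strand) encodes the cytosolic thioredoxin reductase, and was the only selenoprotein gene of the set that passed as higher in growing oocytes. Non-growing oocytes gave 6.25 and 5.92 TPM for control against 3.45 and 3.88 TPM for PRC2 cKO. Growing oocytes gave 19.8 and 18.6 TPM for control against 17.0 and 22.0 TPM for PRC2 cKO. Growing libraries of both genotypes were above every non-growing library, and the genotypes overlapped in growing oocytes only. PRC1 control gave 19.9 and 19.0 TPM against 16.5 and 15.4 TPM for PRC1 cKO. The log2 change was 1.51 (SE 0.16) with growth in control, 2.12 (SE 0.16) with growth in PRC2 cKO and -0.27 (SE 0.17) in PRC1 cKO.

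Prdx1 (ENSMUSG00000028691, chromosome 4, 116685544 to 116700822 on GRCm38, plus strand) and Prdx2 (ENSMUSG00000005161, chromosome 8, 84969587 to 84974834 on GRCm38, plus strand) encode cytosolic peroxiredoxins, which reduce peroxide with electrons from thioredoxin. Prdx1 varied least of the 10 genes, with a span of 0.34 on the log2 scale between the lowest and highest of the 4 PRC2 group means. Control libraries gave 1386 and 1413 TPM before growth, against 1377 and 1246 TPM for PRC2 cKO. They gave 1581 and 1739.6 TPM during growth, against 1484 and 1369 TPM for PRC2 cKO. Its PRC1 values were 1285 and 1373 TPM for control against 1481 and 1349 TPM for cKO, which overlapped. In the PRC2 table the cKO lay below the control at both stages without overlap, by small margins. The growth change of Prdx1 in control was 0.25 (SE 0.084).

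Prdx2 read 243 and 250.3 TPM for non-growing control against 229.7 and 231 TPM for PRC2 cKO. Once growing, control read 564 and 599.8 TPM against 536 and 585 TPM for PRC2 cKO. The stages were far apart in each genotype, and the genotypes overlapped in growing oocytes only. For PRC1 it read 754 and 739 TPM under control against 595 and 698 TPM for cKO, the cKO being lower without overlap. The log2 change was 1.24 (SE 0.076) with growth in control, 1.28 (SE 0.076) in PRC2 cKO and -0.21 (SE 0.14) in PRC1 cKO. Prdx2 overlaps Rnaseh2a by 181 bases and Junb by 351 bases on the other strand, of which Rnaseh2a held 66.2 to 144 TPM.

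Sod1 (ENSMUSG00000022982, chromosome 16, 90220754 to 90226329 on GRCm38, plus strand) encodes the copper and zinc superoxide dismutase of the cytosol, and Sod2 (ENSMUSG00000006818, chromosome 17, 13006846 to 13040063 on GRCm38, plus strand) the manganese enzyme of mitochondria. Sod1 held 817 and 784 TPM for non-growing control against 719.8 and 789 TPM for PRC2 cKO. It held 325 and 274 TPM for growing control against 324 and 281 TPM for PRC2 cKO. The genotypes overlapped at both stages, and the stages did not. PRC1 control held 279 and 349 TPM of Sod1 against 582 and 541 TPM for PRC1 cKO, without overlap. The log2 change of Sod1 was -1.42 (SE 0.11) with growth in control and 0.85 (SE 0.16) in PRC1 cKO.

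Sod2 gave 221 and 241 TPM for non-growing control against 218 and 188 TPM for PRC2 cKO. It gave 89.8 and 75.4 TPM for growing control against 97.8 and 102 TPM for PRC2 cKO. The cKO was below the control in non-growing oocytes and above it in growing ones, each time without overlap. The PRC1 pair gave 105 and 129 TPM of Sod2 for control against 216 and 167 TPM for cKO, again without overlap. The log2 change of Sod2 was -1.47 (SE 0.12) with growth in control and 0.70 (SE 0.19) in PRC1 cKO. Transcripts of 11 other genes match Sod2 transcripts at 90.4% to 93.2% over 200 to 210 bases, and one of them, Cct6a, reached 409 TPM in a library, above every level of Sod2. Reads that fall there could be shared, and the share was not tested.

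Cat (ENSMUSG00000027187, chromosome 2, 103453849 to 103485160 on GRCm38, minus strand) encodes catalase. It read 12.7 and 13.0 TPM for non-growing control against 11.1 and 12.4 TPM for PRC2 cKO. Growing oocytes read 2.33 and 1.06 TPM for control against 3.04 and 2.87 TPM for PRC2 cKO. The PRC1 readings were 2.96 and 4.22 TPM for control against 19.5 and 13.2 TPM for cKO. Every growing library of the PRC2 table was below every non-growing one, and both PRC1 cKO libraries were above both controls. The log2 change was -2.40 (SE 0.24) with growth in control, -1.69 (SE 0.24) in PRC2 cKO and 1.91 (SE 0.29) in PRC1 cKO, which was the largest PRC1 change among the 10 genes.

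The first comparison asks how the transcriptome differs between non-growing and growing oocytes with Eed intact. In PRC2 control oocytes Txnrd1, Prdx1 and Prdx2 rose, and Selenop, Gpx1, Gpx3, Gpx4, Sod1, Sod2 and Cat fell. Their paralogs did not divide in the same way. Prdx3, Prdx4, Prdx5, Prdx6, Txnrd2 and Txnrd3, picked out after their values were seen, all passed as lower (-0.97 for Txnrd3 to -2.29 for Prdx4). Of these Txnrd3 alone lost its call under the 3 other scalings. The glutathione peroxidase Gpx6 passed as higher (3.41), but it passed the filter on low values only through growing libraries. By limma on log2(TPM + 1), with Benjamini-Hochberg adjustment over all 14153 tested genes and a threshold of 0.05, all 10 genes passed, 3 higher and 7 lower. Among all tested genes 70.6% passed, 16.6% higher and 54.0% lower. The libraries of the stages did not overlap for any of the 10 genes, nor for 88.8% of all tested genes. The median change was -1.45 over the 10 genes and -0.67 over all tested genes, so relative to that median Txnrd1 stood at 2.18, Prdx2 at 1.91, Gpx1 at -0.41, Sod1 at -0.75 and Selenop at -3.67. Adjusted p-values ran from 2.10e-05 for Prdx2 to 0.0343 for Prdx1.

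Prdx1 was the weakest of these calls. It missed the threshold without the filter on low values (limma adjusted p = 0.0799), with quantile normalization (0.127), with a spread estimated without trend (0.115), and without PRC2 control non-growing replicate 1 (0.144), non-growing replicate 2 (0.112) or growing replicate 2 (0.162). Gpx3 missed it with trimmed-mean scaling (adjusted p = 0.0602) and without PRC2 control growing replicate 2 (0.0551). Trimmed-mean scaling, which rescales libraries so that most genes do not shift, moved the median of all genes to -0.06 and the split of all calls from 2346 higher and 7640 lower to 4050 and 4062, while the 10 genes gave 3 higher and 6 lower. Rescaled to nuclear protein-coding genes, which leaves the TEC models out of the sum, all 10 passed with 3 higher and 7 lower.

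Markers of oocytes and of other cells moved with growth as well. Of the 10 oocyte markers 5 passed as higher and 4 as lower in PRC2 control, among them Gdf9 (2.65) and Figla (-1.56). Over all tested genes 16.6% passed as higher and 54.0% as lower. Summed TPM of the 12 granulosa cell markers was 3.43 and 3.64 in non-growing and 8.96 and 8.70 in growing control libraries. The 8 macrophage or immune markers summed to 2.02 and 1.94 TPM before growth and 13.7 and 13.6 TPM during it. Both of the 2 that were tested, C1qb and Cd68, passed as higher. Most of the sum came from C1qb (1.06 and 1.03 to 10.73 and 11.05 TPM), while the immune gene Ptprc was at most 0.04 TPM in these libraries. The 8 stromal markers went the other way, from 3.66 and 3.18 to 1.26 and 1.23 TPM. Growing PRC2 cKO libraries had 9.17 and 11.2 TPM of granulosa and 4.79 and 7.14 TPM of immune markers. The part of these markers in the growth changes of the 10 genes was not tested.

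In PRC2 cKO oocytes the same comparison gave 8 of the 10 genes, 2 higher and 6 lower, where 66.1% of all tested genes passed (20.1% higher and 46.0% lower) and the median over all genes was -0.45. Txnrd1 and Prdx2 rose, and Selenop, Cat, Gpx4, Sod1, Sod2 and Gpx1 fell. The stages did not overlap for those same 8 genes, nor for 79.3% of all tested genes in either direction. Gpx3 changed by 0.18 (limma adjusted p = 0.724) and Prdx1 by 0.12 (0.238). With trimmed-mean or protein-coding scaling Prdx1 passed as well (0.63, adjusted p = 0.0130, and 0.62, adjusted p = 0.00192).

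**Figure D3:**
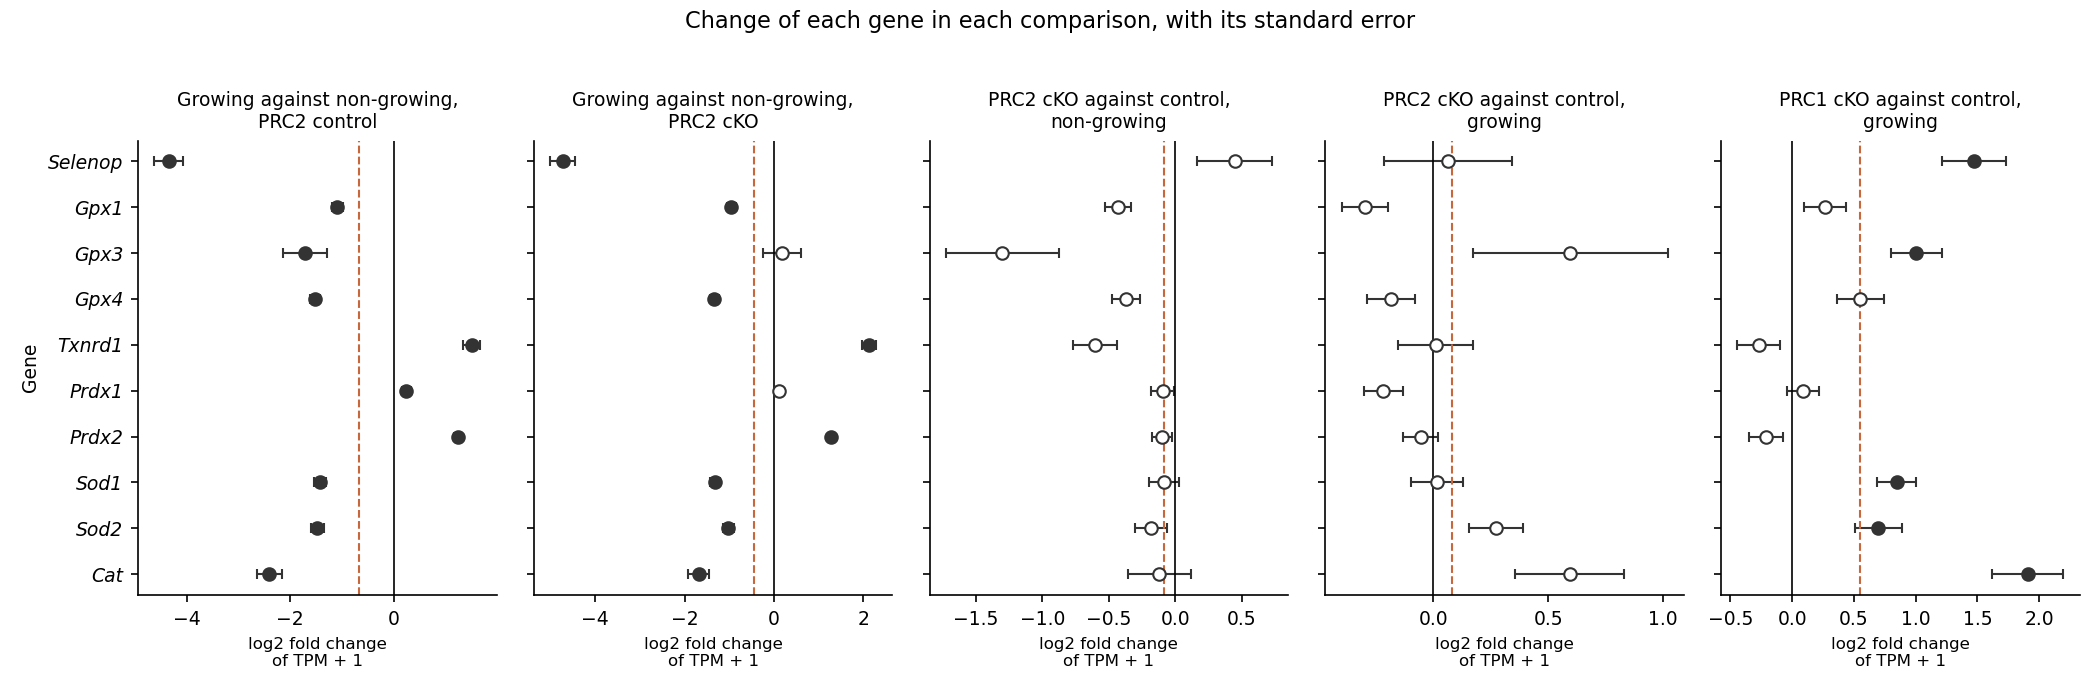
Change of each gene on the log2(TPM + 1) scale in 5 comparisons, with bars for the standard error of the limma fit; filled points passed an adjusted p of 0.05, the dashed orange line is the median of all tested genes, and each panel has its own x axis. Growth moves Selenop to -4.34 and Txnrd1 to 1.51 in control, no point is filled in the PRC2 cKO comparisons, and Cat (1.91) and Selenop (1.47) lie farthest right in PRC1 cKO.

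The next comparison asks what loss of Eed changes at each stage. In non-growing oocytes none of the 10 genes passed (limma, adjusted p under 0.05), and 0.311% of all tested genes did (0.113% higher and 0.198% lower). Before adjustment 4 had p under 0.05, as did 16.4% of all genes: Gpx1 (-0.43, SE 0.10), Gpx4 (-0.37, SE 0.10), Txnrd1 (-0.60, SE 0.16) and Gpx3 (-1.30, SE 0.42), each lower in the cKO. The libraries of the groups did not overlap for 9 of the 10 genes, 8 lower and 1 (Selenop, 0.45, SE 0.28) higher in the cKO, against 58.4% of all tested genes in either direction. The adjusted p-values of the 10 genes ran from 0.144 (Gpx1) to 0.824 (Cat). Of the 10 oocyte markers 8 lay lower and 2 higher in the cKO, with a median of -0.48 against -0.09 for all genes. Among them 1 passed as lower, and none with trimmed-mean scaling. Summed stromal markers read 3.66 and 3.18 TPM for control against 6.21 and 4.86 TPM for cKO, and immune markers 2.02 and 1.94 against 1.67 and 0.72 TPM. The part of these markers in the changes of the 10 genes was not tested.

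In growing oocytes none of the 10 genes passed either (limma), and 0.170% of all tested genes did (0.120% higher and 0.0495% lower). Before adjustment 3 had p under 0.05, as did 9.94% of all genes: Gpx1 (-0.30, SE 0.10), Prdx1 (-0.22, SE 0.084) and Cat (0.59, SE 0.24). Groups did not overlap for 5 of the 10 genes, 3 higher and 2 lower, against 36.5% of all tested genes. None of the 10 oocyte markers passed, with a median of 0.04 against 0.08 for all genes. Summed immune markers read 13.7 and 13.6 TPM for control against 4.79 and 7.14 TPM for cKO. The part of these markers was not tested here either. The difference between the 2 cKO effects was tested directly in the same fit. None of the 10 genes passed, with 0.0989% of all genes passing (0.0919% higher and 0.00707% lower). Before adjustment 3 reached p under 0.05 (Gpx3, Sod2 and Txnrd1, at 1.90, 0.46 and 0.61), as did 15.8% of all genes. With 2 libraries a group, the absence of calls does not show that the genotypes were alike.

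The last comparison asks what changed in PRC1 cKO oocytes against their control, both lacking Ring1. Cat, Selenop, Gpx3, Sod1 and Sod2 were higher in PRC1 cKO, and Gpx1, Gpx4, Txnrd1, Prdx1 and Prdx2 did not pass. By limma 5 of the 10 genes rose and none fell: Cat (adjusted p = 0.00679), Selenop (0.00994), Sod1 (0.0113), Gpx3 (0.0151) and Sod2 (0.0339). Among the 14941 tested genes 47.8% passed, 41.3% higher and 6.45% lower, and the median change was 0.55 over all genes and 0.62 over the 10 genes. The libraries of the groups did not overlap for 9 of the 10 genes, 7 higher and 2 lower (Prdx2 and Txnrd1), nor for 77.5% of all tested genes. Relative to the median of all genes Cat stood at 1.36, Selenop at 0.92, Gpx3 at 0.46, Sod1 at 0.30, Sod2 at 0.15, Prdx2 at -0.76 and Txnrd1 at -0.82. Gpx4 changed by 0.55 (adjusted p = 0.0665), Gpx1 by 0.26 (0.243), Prdx1 by 0.089 (0.594), Prdx2 by -0.21 (0.250) and Txnrd1 by -0.27 (0.249).

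The PRC1 split depended on scaling. With trimmed-mean scaling the median of all genes was -0.07, all-gene calls went from 6176 higher and 964 lower to 3171 and 3424, and 6 of the 10 genes passed: Cat (1.27) and Selenop (0.84) higher, and Txnrd1 (-0.96), Prdx2 (-0.94), Prdx1 (-0.64) and Gpx1 (-0.46) lower, while Sod2 was at -0.03, Sod1 at 0.11 and Gpx3 at 0.28. With quantile normalization, where the median of all genes was -0.04, 3 were higher and Txnrd1 was lower (-0.77). Cat kept its call under all 14 alternatives tried, with adjusted p from 0.000737 to 0.0304. The call count also rested on 1 library: without PRC1 control replicate 1, Cat alone of the 10 genes passed, and without the low-value filter 3 did. Sod2 lost its call in 7 of the 14 alternatives, the replicate number as a block included (adjusted p = 0.0696), and turned direction in 1 more, trimmed-mean scaling.

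The 5 genes higher in PRC1 cKO were all among the 7 that were lower in growing than in non-growing control oocytes of the other table, which shares no library with it (100% of the 5 and 71.4% of the 7). Over all genes tested in both tables the same held for 3846 genes, 78.6% of the 4891 higher in PRC1 cKO and 53.8% of the 7155 lower in growing control oocytes. The median of all genes was -0.67 with growth and 0.55 in PRC1 cKO. With trimmed-mean scaling only Cat and Selenop of the 5 kept their PRC1 call, and the overlap was not counted again.

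Oocyte markers shifted between the PRC1 groups, with 3 of 10 higher and 4 lower in cKO. Over all tested genes 41.3% passed as higher and 6.45% as lower. Bmp15, a growth factor secreted by oocytes, read 448 and 354 TPM for control against 22.1 and 74.2 TPM for cKO, and its relative Gdf9 read 4864 and 5225 TPM against 1572 and 2205 TPM. Oosp1, an oocyte-secreted protein, read 318 and 297 TPM against 40.7 and 66.6 TPM. Figla, a transcription factor of oocytes, read 282 and 382 TPM against 683 and 630.2 TPM, and Ddx4 146 and 160.2 TPM against 259 and 242 TPM, both called higher; with trimmed-mean scaling none of the 10 passed as higher and 5 passed as lower. Markers of other ovarian cells, summed by list, were higher in the PRC1 cKO libraries too, but single markers did not all follow. The granulosa marker Nr5a2 read 6.4 and 6.62 TPM for control against 3.77 and 4.04 TPM for cKO. Of the 3 granulosa markers tested 2 passed as higher, and with trimmed-mean scaling 1 passed as lower. The endothelial marker Pecam1 overlapped (5.62 and 3.72 against 2.32 and 5.73 TPM), and the immune marker Cd68 reached 2.49 TPM in control and 2.69 TPM in cKO. In bulk samples fewer cells of a type and less RNA per cell cannot be told apart. Summed TPM of the 8 macrophage or immune markers was 14.1 and 15.1 in control and 42.6 and 36.6 in cKO, most of it from C1qb (38.8 and 33.5 in cKO), while the immune gene Ptprc was at most 0.16. Summed TPM of the 12 granulosa markers was 9.18 and 11.8 in control and 34.4 and 23.2 in cKO, of which Inha gave 17.2 and 10.9, while the defining markers Foxl2 and Amh reached 0.19 and 0.24 at most. The 8 stromal markers summed to 0.86 and 0.82 in control and 6.22 and 9.39 in cKO, the 6 endothelial markers to 7.46 and 6.10 and to 8.28 and 11.2, and the 7 erythroid markers to at most 2.45. Models at 1 TPM or more numbered 12452 on average in control and 15261 in cKO libraries, and the TEC share was 21.7% and 13.0%. The part of any of these in the changes of the 10 genes was not tested. Rescaled to nuclear protein-coding genes, Cat (1.77), Selenop (1.32), Gpx3 (0.77) and Sod1 (0.61) still passed, and Sod2 did not (0.46, limma adjusted p = 0.0705).

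The rest of the selenium, thiol and antioxidant genes were taken from 7 lists of 89 other genes, of which 73 passed the filter for PRC2 and 78 for PRC1. These lists were drawn up by function, with earlier results of these data known. With growth in PRC2 control 10 of the 73 rose (13.7%) and 50 fell (68.5%), where 16.6% and 54.0% of all genes did. With trimmed-mean scaling the counts were 17 and 26. With growth in PRC2 cKO 12 rose (16.4%) and 42 fell (57.5%), where 20.1% and 46.0% of all genes did. That scaling gave 16 and 32 there. In PRC1 cKO 41 of the 78 rose (52.6%) and 3 fell (3.85%), where 41.3% and 6.45% of all genes did, and with trimmed-mean scaling 23 rose and 16 fell. Trimmed-mean scaling moved the calls of all genes as well, as given with the growth and PRC1 comparisons. The counts of each list under that scaling are to be read beside those. Whether the lists differ from the rest of the genes was not tested.

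In PRC2 cKO against control none of the 73 passed (limma, adjusted p under 0.05) at either stage, nor in the test of the difference between stages. At an unadjusted p under 0.05 there were 18 in non-growing oocytes, 7 in growing ones and 12 for the difference. Among all tested genes 16.4%, 9.94% and 15.8% were under 0.05, in the same order. The smallest p of each list in non-growing oocytes belonged to Selenos (0.40, adjusted p = 0.137), Eefsec (-0.71, 0.296), Glrx (-0.40, 0.109), Gss (-0.48, 0.301), Gstk1 (0.48, 0.129), G6pdx (-0.79, 0.167) and Atox1 (0.12, 0.652). In growing oocytes it belonged to Msrb1 (-0.31, 0.498), Eefsec (0.51, 0.591), Prdx4 (0.54, 0.285), Chac1 (0.60, 0.57), Gstk1 (0.46, 0.259), Nfe2l2 (0.83, 0.139) and Park7 (-0.040, 0.897).

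**Figure D4:**
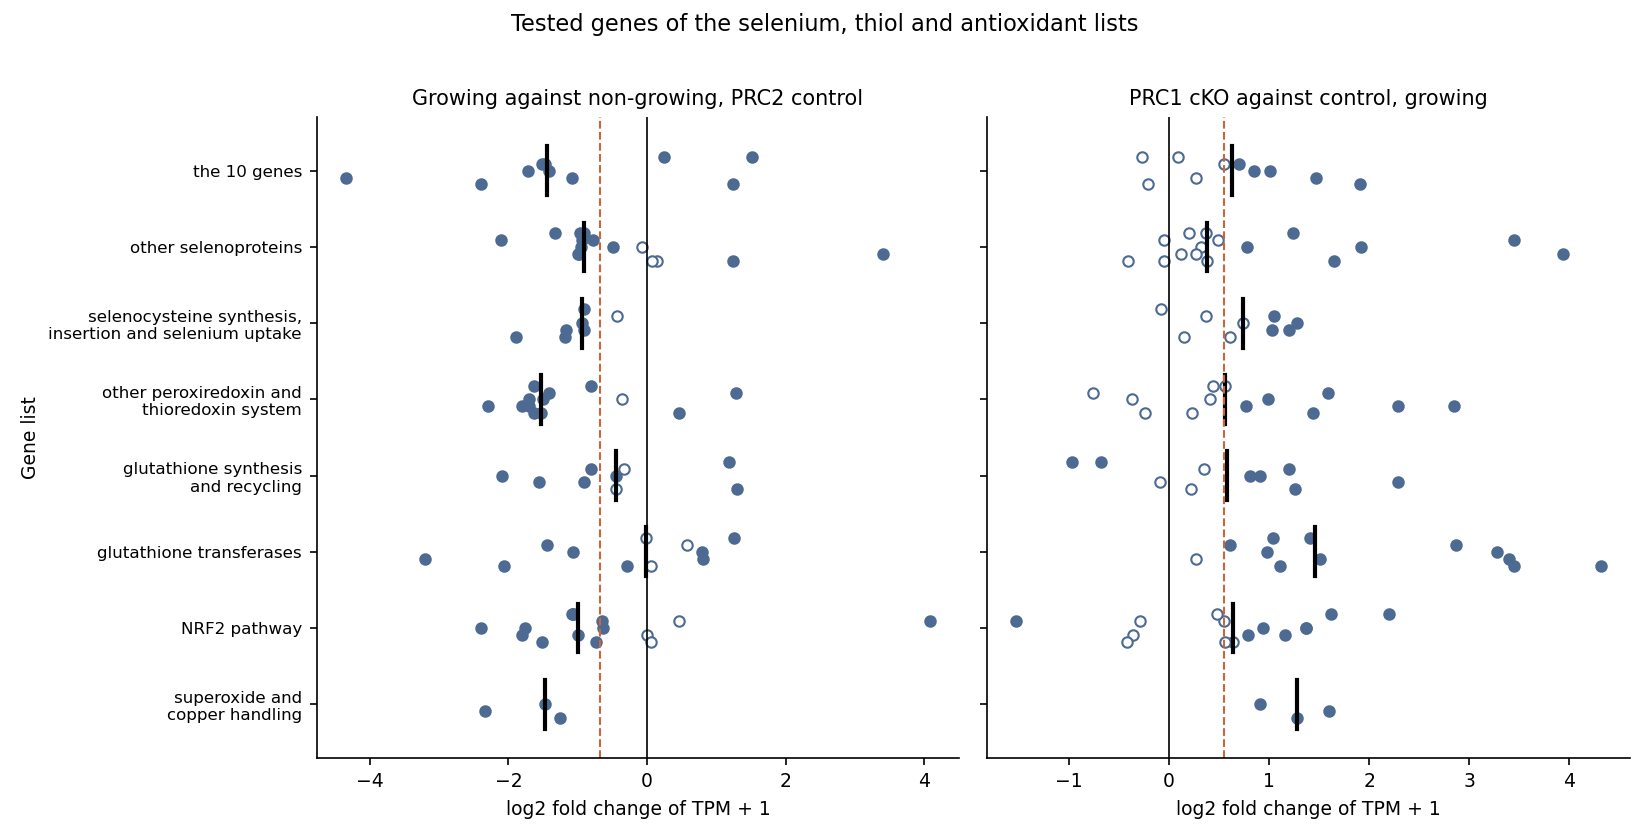
Change on the log2(TPM + 1) scale of every tested gene of each list, with growth in PRC2 control on the left and in PRC1 cKO on the right; filled points passed an adjusted p of 0.05, black bars are list medians and the dashed orange line is the median of all tested genes. The thioredoxin list has its median at -1.53 with growth, left of the dashed line at -0.67, and the glutathione transferases have theirs at 1.46 in PRC1 cKO, right of the line at 0.55.

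Among the other selenoproteins 10 of 15 tested fell with growth in control oocytes (where 54.0% of all genes did), among them the nuclear selenoprotein Selenoh (-1.33) and the endoplasmic reticulum protein Selenok (-0.99, but -0.22 and no call with trimmed-mean scaling), and 2 rose, with a list median of -0.91 against -0.67 for all genes. With trimmed-mean scaling the split turned, to 4 higher and 2 lower, with a list median of -0.14 against -0.06 for all genes. The calls of all genes shifted toward higher under that scaling too, as given with the growth comparison. The largest rise was that of Gpx6 (from 0.23 and 0.18 to 11.2 and 12.4 TPM, 3.41). It is a glutathione peroxidase whose mouse coding sequence held no in-frame TGA, unlike the other 19 genes of the list. Gpx6 passed the filter on low values only through growing libraries, so with growth it could only be called as higher. In PRC1 cKO 6 of 16 rose and none fell (4 and 3 with trimmed-mean scaling), where 41.3% and 6.45% of all genes did. The list median was 0.37 against 0.55 for all genes. Selenom, an endoplasmic reticulum selenoprotein, went from 2.30 and 1.47 to 32.2 and 28.2 TPM (3.45, SE 0.25, limma adjusted p = 0.00212). Gpx2, the gastrointestinal glutathione peroxidase, went from 0.20 and 0.13 to 21.9 and 12.9 TPM (3.94, SE 0.31, limma adjusted p = 0.00225). It is counted among the rises, but it passed the filter on low values only through the cKO libraries, so it could only be called as higher. Selenos, which helps clear misfolded proteins from the endoplasmic reticulum, changed by 1.65.

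Of the genes that make and insert selenocysteine or take up selenium, 6 of 7 tested fell with growth in control and none rose. Over all genes 54.0% fell and 16.6% rose. The list median was -0.94 against -0.67 for all genes. With trimmed-mean scaling 3 fell and none rose, with a median of -0.21 against -0.06. Pstk, the kinase that phosphorylates the seryl-tRNA for selenocysteine, went from 104 and 107 to 42.9 and 50.5 TPM (-1.16), and Sepsecs, which completes the synthesis, changed by -1.18. Trnau1ap, a partner of the selenocysteine tRNA, changed by -0.92, but by -0.15 and with no call under trimmed-mean scaling (adjusted p = 0.264). In PRC1 cKO 4 of 9 rose and none fell (2 and 1 with trimmed-mean scaling), where 41.3% and 6.45% of all genes did. Pstk led (38.1 and 46.8 to 100.4 and 108 TPM, 1.28), with Scly, which releases selenium from selenocysteine, at 1.05 and Sephs1 at 1.03. Scly passed the filter on low values only through the cKO libraries, so it could only be called as higher. The calls of Scly and Sephs1 were lost without PRC1 control replicate 1 (adjusted p = 0.0710 and 0.0928).

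Of the other peroxiredoxins, thioredoxins and glutaredoxins, 10 of 13 fell and 2 rose with growth in control (9 and 2 with trimmed-mean scaling), where Prdx1 and Prdx2 rose. Over all genes 54.0% fell and 16.6% rose. Prdx4, the peroxiredoxin of the endoplasmic reticulum, went from 84.5 and 89.0 to 17.4 and 16.4 TPM (-2.29), the thioredoxin-related Txndc17 changed by -1.80 and Glrx3 went from 265 and 272 to 86.0 and 78.4 TPM (-1.70). In PRC1 cKO 6 of 13 rose and none fell, where 41.3% and 6.45% of all genes did, but 4 rose and 4 fell with trimmed-mean scaling. Glrx2, the mitochondrial glutaredoxin, went from 18.6 and 17.4 to 92.5 and 90.7 TPM (2.29), Prdx4 from 19.8 and 26.3 to 219.7 and 132 (2.85) and Prdx6, which acts on phospholipid peroxides, from 57.8 and 56.0 to 195 and 154 (1.59).

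The glutathione lists were mixed. Over all genes 16.6% rose and 54.0% fell with growth in control, and 41.3% rose and 6.45% fell in PRC1 cKO. For glutathione synthesis and recycling 5 of 9 fell and 2 rose with growth in control (2 and 2 with trimmed-mean scaling), including falls of glutathione synthetase Gss (25.6 and 30.3 to 5.66 and 5.88 TPM, -2.09) and glutathione reductase Gsr (-1.56) and a rise of Ggct (1.18), which degrades gamma-glutamyl peptides. In PRC1 cKO 5 of 10 rose and 2 fell (1 and 3 with trimmed-mean scaling). Gpx7, an endoplasmic reticulum peroxidase without selenocysteine, went from 0.62 and 0.78 to 6.51 and 8.16 TPM (2.29). Gpx7 passed the filter on low values only through the cKO libraries, so it could only be called as higher. Chac1, which breaks glutathione down, changed by 1.25 and Gsr by 0.91, and both calls were lost without PRC1 control replicate 1 (limma adjusted p = 0.0991 and 0.0995). Glutathione transferases, which conjugate glutathione to reactive compounds, had 3 rises and 5 falls among 11 with growth (6 and 3 with trimmed-mean scaling). The mitochondrial and peroxisomal Gstk1 went from 72.3 and 73.0 to 7.24 and 6.80 TPM (-3.20) and Gstm5 from 113 and 97.2 to 261 and 241 (1.26). In PRC1 cKO 11 of 12 transferases rose, with a list median of 1.46 (8 rose and 1 fell with trimmed-mean scaling). Microsomal Mgst1 went from 0.29 and 1.22 to 31.3 and 34.0 TPM (4.31), Gsto1 from 14.3 and 16.0 to 204 and 150.0 (3.45), and Gstp1 changed by 1.50.

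Among all genes 16.6% rose and 54.0% fell with growth in control, and 41.3% rose and 6.45% fell in PRC1 cKO. Genes of the NRF2 pathway gave 1 rise and 11 falls among 15 with growth in control, and 6 rises and 1 fall in PRC1 cKO. With trimmed-mean scaling these were 3 rises and 5 falls, and 2 rises and 4 falls. The ferritin chains Ftl1 and Fth1, which store iron, went from 2833 and 3117 to 614 and 523 TPM (-2.39) and from 653 and 707 to 194 and 195 TPM (-1.80). Me1, the malic enzyme that makes NADPH in the cytosol, rose from 9.31 and 7.47 to 148 and 167 TPM (4.08) and was lower in PRC1 cKO than in its control (62.0 and 80.5 against 209.8 and 202 TPM, -1.53). Nfe2l2 itself went from 4.89 and 5.23 to 18.9 and 16.4 TPM in PRC1 cKO (1.62) and Hmox1, the heme oxygenase, from 4.71 and 6.83 to 35.3 and 24.9 (2.20). In PRC2 cKO growing oocytes Nfe2l2 was at 7.03 and 7.45 TPM against 3.55 and 3.75 in control (0.83, SE 0.14), which did not pass (limma adjusted p = 0.139). Of the superoxide and copper genes, Ccs, the chaperone that loads copper into Sod1, moved in the directions of Sod1: from 204 and 207 to 43.5 and 36.3 TPM with growth (-2.34) and from 34.4 and 40.5 to 119 and 110.5 in PRC1 cKO (1.59). The copper carrier Atox1 (-1.26 and 1.27) and Park7 (-1.47 and 0.91) fell with growth and rose in PRC1 cKO as well, but with trimmed-mean scaling Atox1 missed the threshold for growth (limma adjusted p = 0.0741) and Park7 in PRC1 cKO (0.361).

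For the 9 genes whose PRC2 group means spanned more than 1 on the log2 scale, the genes with the most similar profile over the 8 PRC2 libraries were searched among 7552 genes, by the root-mean-square difference of centred log2(TPM + 1) values. Txnrd1 was most like Zp3, the zona pellucida glycoprotein, at 0.089, and Prdx2 most like Ccndbp1 at 0.057. Gpx4 was most like Borcs8 (0.047), Sod1 like Slc25a17 (0.050), Gpx1 like Qser1 (0.067), Sod2 like Manbal (0.074) and Cat like Eif4ebp1 (0.113). Gpx3 had its closest gene at 0.194 (Grina) and Selenop at 0.407 (Ptpro), the farthest of the 9. These are descriptions of 8 libraries that fall in 2 stages, which many genes follow.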

How the data were processed

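The 12 libraries held RNA of oocytes and were measured by RNA-seq. Per the labels' protocols, extraction used a Qiagen micro-scale column kit, library preparation an NEBNext low-input kit, and sequencing a HiSeq 4000 with paired 150-base reads. The authors deposited TPM values in 2 tables whose columns sum to 1000000, so depth is unknown. The build was GRCm38/mm10, and the tools named were RSEM 1.3.3, Subread 2.0.3, SAMtools, HISAT2 and Trim Galore 0.6.10, per the submitters' processing notes. No source used here states which tool the TPM values came from, whether counting used strand or how reads matching several places were handled.

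Values were taken as log2(TPM + 1), a scale that understates changes of low genes, and fitted per table with limma 3.58.1 in R 4.3.3 (eBayes with trend, all groups of a table in 1 fit, no covariate). Genes at 1 TPM or more in at least 2 libraries were tested, 2-sided, with Benjamini-Hochberg adjustment over all tested genes and a threshold of 0.05. A gene that passed this filter only through the libraries of 1 group could only be called as higher there. The tables were fitted separately because they were normalized separately. Groups came from the sample titles.

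The members and the gene lists were chosen with earlier results of these data known. The text names every member in each comparison and, per list and comparison, up to 3 called genes of smallest p, or the 1 of smallest p where none was called. The lists for growth in PRC2 cKO and for the difference between stages are given as counts only. Genes with a similar profile needed a mean of at least 5 TPM and a named gene model, and the closest was named.

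Sequences came from GENCODE vM21 on GRCm38, whose coordinates matched 54851 and 54848 of the gene models, and from RefSeq promoter windows. Copies were searched with blastn 2.17.0 at 90% identity over at least 200 bases. Same-numbered libraries correlated in their deviations from group means at 0.26 between the non-growing and growing PRC2 cKO groups. The other pairs of PRC2 groups gave -0.03 to 0.058, and the PRC1 groups -0.268. The labels do not say that the numbers pair samples, so they were not taken as pairs in the main fit. The fit was first tested on simulated data with 200 or 6000 changed genes. For non-growing PRC2 cKO it recovered 30.8% of 2-fold and 73.5% of 4-fold changes with 200 changed genes, and 82.8% and 95.6% with 6000. For PRC1 cKO it recovered 0% of either with 200 changed genes, and 73.5% and 93.9% with 6000. Alternatives changed the filter on low values, the pseudocount, the scaling (3 others), the trend of eBayes, the groups in the fit, added the replicate block, or left out each library in turn.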

Additional observations from a re-analysis of the deposited data

How the results depend on the processing

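Under the alternatives tried, no call of the 10 genes appeared in PRC2 cKO at either stage or in the difference between stages. Calls of the 10 genes numbered 8 to 10 with growth in control, 8 with growth in PRC2 cKO, and 1 to 6 in PRC1 cKO when each library was left out in turn, and 3 in PRC1 cKO without the filter on low values. The pathway lists gave 51 to 62, 51 to 56 and 30 to 47 calls in these comparisons and 0 to 4 for the difference between stages, where the 4 came without PRC2 cKO growing replicate 1.

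Of the changes that turned direction, Sod2 in PRC1 cKO had passed (0.70, limma adjusted p = 0.0339), and Prdx1 and Gpx1 in PRC1 cKO passed as lower after turning (adjusted p = 0.0292 and 0.0388). With trimmed-mean scaling, PRC2 cKO in non-growing oocytes gave 0.013 for Prdx1, 0.0082 for Prdx2 and 0.021 for Sod1, and in growing ones -0.082 for Selenop, -0.15 for Sod1 and -0.15 for Txnrd1. The same scaling gave -0.14 for Gpx1, -0.086 for Gpx4, -0.23 for Prdx2 and -0.17 for Sod1 in the difference between stages, and -0.46 for Gpx1, -0.18 for Gpx4, -0.64 for Prdx1 and -0.031 for Sod2 in PRC1 cKO. Quantile normalization gave 0.021 for Cat in non-growing PRC2 cKO, -0.085 for Selenop and -0.086 for Txnrd1 in growing PRC2 cKO, and -0.016 for Gpx1 in PRC1 cKO. Protein-coding scaling gave -0.15 for Prdx1 in PRC1 cKO. With libraries left out, growing PRC2 cKO ranged from -0.40 to 0.53 for Selenop, -0.12 to 0.0092 for Prdx2, -0.11 to 0.14 for Sod1, -0.17 to 0.19 for Txnrd1 and -0.16 to 0.076 for Park7. Growth in PRC2 cKO ranged from -0.42 to 0.78 for Gpx3. The difference between stages ranged from -0.85 to 0.081 for Selenop, -0.020 to 0.11 for Prdx2 and -0.019 to 0.22 for Sod1. For shifts beyond the scaling's own change of the median, the cause was not tested.

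Over all genes, non-growing PRC2 cKO gave 44 calls (20 with the replicate block, 26 with trimmed-mean scaling, 87 with a pseudocount of 5, 91 without the filter, 6 to 48 with libraries left out). Growing PRC2 cKO gave 24 (50 without the filter, 12 without trend, 11 with only the groups compared, 9 to 28), the difference between stages 14 (5 with the block, 7 with a pseudocount of 5, 21 without the filter, 2 to 922) and PRC1 cKO 7140 (3747 to 5865). The replicate block gave 4 calls of the 10 genes in PRC1 cKO, without Sod2, and changed no other call of them. Since the numbers ran against each other in the PRC1 table, a crossed pairing was added after seeing the data, and gave 6 calls of the 10 genes, 59 on the lists and 9501 over all genes. Depth is unknown, so low TPM values such as those of Cat in growing oocytes carry no counting interval.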
